A study of Mus musculus with 16 samples.

Results

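The Cyp2 genes encode a family of cytochrome P450 enzymes. Their RNA was measured in the livers of old mice with and without a deletion of the glucagon receptor gene directed at hepatocytes. The members are the 49 genes, of 41079 in the deposited table, whose symbol is Cyp2 followed by a subfamily letter and a number, which leaves out pseudogenes. Cytochrome P450 enzymes are haem proteins of the endoplasmic reticulum that take electrons from NADPH through the reductase Por and place an oxygen atom on steroids, fatty acids, bile acids, vitamin D, drugs and environmental chemicals. Hepatocytes hold most of the body's Cyp2 enzymes. Many mouse members are made mainly near the central vein of the lobule, and several are sex-biased under the different patterns of growth hormone release in males and females. Glucagon acts on hepatocytes through its receptor Gcgr, which raises cyclic AMP.

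Liver RNA came from 16 mice on the C57BL/6J background, aged 20 to 22 months, with 4 mice in each of 4 groups. All mice carried Gcgr alleles with LoxP sites around part of the exons. The male LKO and female LKO groups also carried Cre under the albumin promoter, which deletes that part in hepatocytes for life, and the male CRE- and female CRE- groups were floxed mice without Cre. No group had Cre without the floxed alleles, so an effect of Cre alone and an effect of the deletion cannot be told apart. The reads assigned to genes numbered from 33268424 to 56488920 per library. Levels are given in CPM, the usual scale of counts relative to a library's total, with totals scaled by TMM, a trimmed mean over genes.

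Gcgr itself (chr11:120420011-120429815 on the + strand of GRCm39) was at 162, 208, 201 and 180.0 CPM in female CRE- replicates 1 to 4 and at 48.8, 132, 119 and 93.6 CPM in female LKO replicates 1 to 4. It was at 190.4, 193, 127 and 189.6 CPM in the male CRE- mice and at 117, 136, 129.9 and 160.3 CPM in the male LKO mice. Every female LKO mouse lay below every female CRE- mouse, and the male groups overlapped through male CRE- replicate 3. The count covers all exons of the gene, those outside the floxed part included, so it cannot separate intact from deleted transcript. How complete the deletion was in these mice was not tested here. The paper reports that, among the tissues it examined in mice of this age, Gcgr transcript was lower in the liver alone. The log2 fold change was -0.93 with an SE of 0.25 (adjusted p = 0.0443 in edgeR's quasi-likelihood test and Benjamini-Hochberg adjustment) in females and -0.37 with an SE of 0.24 (adjusted p = 0.671 in the same edgeR test) in males. With the sexes compared, the difference of the effects was -0.57 with an SE of 0.35 (adjusted p = 0.412 in the same edgeR test). The female call was lost with 7 of the 8 female mice left out in turn, with log2 fold changes between -1.11 and -0.69 and adjusted p from 0.0225 to 0.136, and the exception was female LKO replicate 2.

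Some libraries stood apart before any member was considered. On the first 2 principal components of log2 CPM over the genes tested, which held 23.9% and 16.8% of the variance, female LKO replicate 1 lay 129 from the origin, male CRE- replicate 3 lay 95.6 and female LKO replicate 4 lay 76.8, and the next library lay 68.2. The level of Xist ran between 137 and 399 CPM in the female CRE- mice, between 253 and 359.9 CPM in the female LKO mice and at most 0.243 CPM in a male, so every library carried the transcript of its labelled sex. Male LKO replicate 1 is a male by that measure, with Xist at 0.0514 CPM and the Y-linked Ddx3y at 58.01 CPM. Every group had mice that were its extreme for many of the 39 members tested. Among the male LKO mice, replicate 1 was the highest for 19 and the lowest for 16, and replicate 3 was the lowest for 18. Female LKO replicates 1 and 4 were the lowest of their group for 19 and 18 members, and replicate 2 was the highest for 18. Of the controls, male replicate 2 was the highest for 24, female replicate 3 the highest for 22 and female replicate 1 the lowest for 24.

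The members lie on 6 chromosomes. Cyp2a (4 members), Cyp2b (5), Cyp2e, Cyp2f, Cyp2g, Cyp2r, Cyp2s and Cyp2t (1 each) are on chromosome 7, Cyp2c (15) on chromosome 19, Cyp2d (9) on chromosome 15, Cyp2j (8) on chromosome 4, Cyp2u1 on chromosome 3 and Cyp2w1 on chromosome 5. Of the 49, 39 had enough reads for edgeR's filter, and they were tested among 16742 genes in all. The 10 that did not were Cyp2b19, Cyp2b23, Cyp2c65, Cyp2c66, Cyp2j7, Cyp2j11, Cyp2j12, Cyp2j13, Cyp2t4 and Cyp2w1, each with at most 42 reads over the 16 mice and at most 10 in any mouse. Liver thus had too few reads to test 4 of the 8 Cyp2j members, while every Cyp2a and Cyp2d member was tested. Of the symbols outside the rule, Cyp2ab1 and the pseudogenes Cyp2c53-ps and Cyp2d37-ps, none passed the test in either LKO comparison, and Cyp2ab1 did not pass the filter.

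Levels differed over many orders of magnitude between members. Per length, as CPM per kilobase of exon averaged over the 16 mice, the ethanol-oxidizing Cyp2e1 was the most abundant at 3019.7 ± 1341 (SD, n = 16). Cyp2c29 followed at 991 ± 301 (SD, n = 16), then Cyp2a5 at 564 ± 459.6 (SD, n = 16), Cyp2d26 at 517 ± 138 (SD, n = 16) and Cyp2d10 at 424 ± 121 (SD, n = 16). Cyp2e1 and Cyp2c29 led in each of the 4 groups, and the order below them differed between the groups. Over all mice, Cyp2a5 differs from Cyp2d26 and from Cyp2d10 by less than its own SD, and Cyp2e1 and Cyp2c29 differ by more than the SD of either. The lowest member tested was Cyp2s1 at 0.155 ± 0.0936 (SD, n = 16) on the same per-length scale.

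Summed over members, the family took 1.44% ± 0.409 (SD, n = 4) of a library's reads in male CRE- mice and 2.01% ± 0.288 (SD, n = 4) in male LKO mice. The share was 1.79% ± 0.249 (SD, n = 4) in female CRE- mice and, in the female LKO group, 1.38% ± 0.478 (SD, n = 4). The lowest shares were in male CRE- replicate 3 (0.891%), female LKO replicate 1 (0.925%) and female LKO replicate 4 (1.02%), the libraries that also lay farthest out on the principal components. In bulk liver, fewer hepatocytes and less of this RNA in each hepatocyte cannot be told apart. Of the family's summed CPM, averaged over the 16 mice, Cyp2c held 32.6%, Cyp2e1 30.8%, Cyp2d 15.8%, Cyp2a 12.4%, Cyp2j 3.46%, Cyp2f2 3.06% and Cyp2b 1.69%. The Cyp2b share ran from 0.141% to 4.40% between mice and the Cyp2f2 share from 0.547% to 8.99%.

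**Figure D1:**
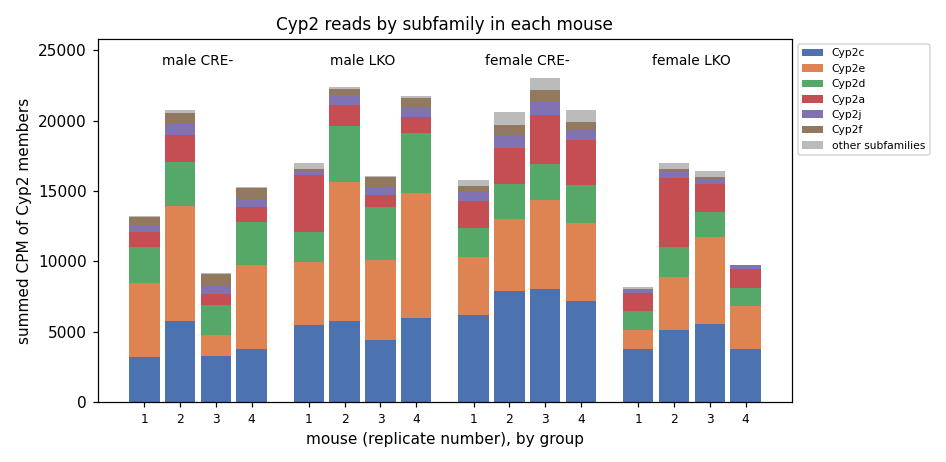
Summed CPM of the Cyp2 members in each of the 16 mice, stacked by subfamily, with the replicate number on the horizontal axis and the mice ordered by group. Male CRE- replicate 3 and female LKO replicates 1 and 4 have the lowest stacks, at 9169.6, 8169.5 and 9779 CPM.

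The first question was what the loss of hepatocyte Gcgr did to the family in each sex. In females 3 members fell, all of them oxidizing enzymes with separate substrates: Cyp2f2, which activates naphthalene, Cyp2j5, an arachidonic acid epoxygenase, and Cyp2a12, which hydroxylates testosterone and bile acids. None rose. The 3 are 7.69% of the 39 members tested, where 4.24% of all genes tested passed in either direction and 2.15% passed as lower (adjusted p under 0.05 in edgeR's quasi-likelihood test and Benjamini-Hochberg adjustment). In males no member passed the same edgeR test, where 0.454% of all genes did.

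Below the threshold, the female values leaned down and the male values up. At an unadjusted p under 0.05 there were 13 members in females (33.3%), 12 lower and 1 higher, against 21.4% of all genes. In males there were 5 (12.8%), all higher, against 9.53% of all genes. The median log2 fold change of the members was -0.61 in females, with 35 of 39 below 0, and 0.41 in males, with 27 of 39 above 0, while over all genes tested the medians were 0.035 and -0.0078. Under the alternative tests, normalizations and left-out mice the members' median stayed below 0 in females, between -0.72 and -0.28, and above 0 in males, between 0.18 and 0.50. Its smallest female size, -0.28, came without the 3 libraries farthest out on the principal components, and its smallest male size, 0.18, without male LKO replicate 1.

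The 4 values of each group separated fully for 11 members that were lower in female LKO mice (28.2%, against 6.42% of all genes) and for none that were higher (5.20% of all genes). In males the groups separated for 1 member that was higher in LKO mice, Cyp2a4 (2.56%, against 3.57% of all genes), and for none that was lower (2.92% of all genes). DESeq2's Wald test called 7 members in females (against 10.6% of the genes in edgeR's fit), which added lower Cyp2c69, Cyp2d26 and Cyp2j6 and higher Cyp2d9 to the 3 above. In males it called Cyp2a4 alone (against 1.95% of the genes in edgeR's fit). The count of 3 in females was 1, Cyp2f2 alone, without female CRE- replicate 2 or 3, was 5 without female LKO replicate 2, and was 0 without the 3 libraries farthest out on the principal components. With the replicate number as a block it was 6, and with the female groups fitted alone it was 2, Cyp2c69 and Cyp2f2. The labels do not say what mice of different groups with the same replicate number share, if anything. The male and female comparisons share no mouse.

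Whether the effect of LKO differed between the sexes was tested as an interaction. No member passed it in edgeR's quasi-likelihood test and Benjamini-Hochberg adjustment, where 0% of all genes did, and the smallest adjusted p of a member was 0.144, of Cyp2c69. At an unadjusted p under 0.05 there were 15 members (38.5%), all with a lower effect in females, against 16% of all genes. DESeq2 called 2, Cyp2c69 and Cyp2j5 (against 2.21% of the genes in edgeR's fit). The median difference over the members was -0.79 in log2, between -0.91 and -0.60 under the alternatives, and 0.035 over all genes.

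**Figure D2:**
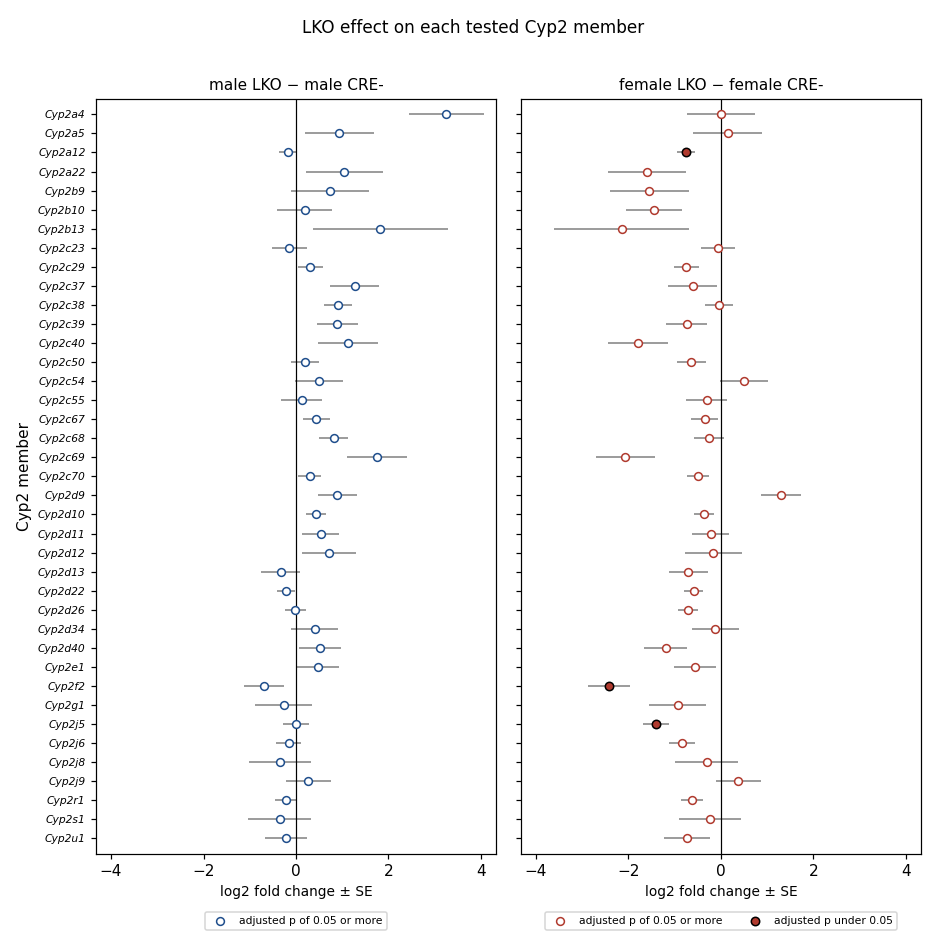
Log2 fold change of each tested Cyp2 member in male LKO against male CRE- mice and in female LKO against female CRE- mice, with bars of 1 SE. In the female panel 35 of 39 points lie below 0, with Cyp2f2, Cyp2j5 and Cyp2a12 filled as past an adjusted p of 0.05, and in the male panel 27 of 39 lie above 0 and none is filled.

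Cyp2f2 (chr7:26819380-26833085, + strand) had the smallest p of the family in females. It turns naphthalene and related aromatics into reactive epoxides, is best known from club cells of the lung airway, and in the liver marks hepatocytes near the portal vein. Its level was 377, 748, 858 and 579.6 CPM in female CRE- replicates 1 to 4 and 72.3, 223, 89.8 and 92.7 CPM in female LKO replicates 1 to 4. Each female LKO mouse lay below the lowest female CRE- mouse, and replicate 2 was the highest of the LKO mice by more than the range of the rest. Control females averaged 641 ± 209.7 CPM (SD, n = 4) and LKO females 119.6 ± 69.8 CPM (SD, n = 4), which is 5.36-fold lower, at a log2 fold change of -2.42 with an SE of 0.46 (adjusted p = 0.0149 in edgeR's quasi-likelihood test and Benjamini-Hochberg adjustment). With each female mouse left out in turn the call held and the value stayed between -2.92 and -2.22, the lower being without replicate 2 of the LKO mice. Without the 3 libraries farthest out on the principal components it was -2.01 and did not pass (adjusted p = 0.134 in the same edgeR test). In males Cyp2f2 was at 667, 776, 825 and 774 CPM in CRE- mice and at 117, 419.6, 691 and 657 CPM in LKO mice. LKO replicates 1 and 2 were below all other males, while replicates 3 and 4 lay at the lower edge of the controls. The male log2 fold change was -0.69 with an SE of 0.44 (adjusted p = 0.660 in the same edgeR test), and the difference between the sexes was -1.73 with an SE of 0.63 (adjusted p = 0.230 in the same edgeR test).

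Hepatocytes near the portal vein, the ones that make most Cyp2f2, have other markers too. Of 12 such genes, of which Ass1 was the most abundant per length and none was at 0 in any mouse, 1 fell in females, Sfxn1, at -0.95 (SE 0.21, adjusted p = 0.0232) in edgeR's quasi-likelihood test and Benjamini-Hochberg adjustment, and 0 passed in males. The interaction for Sfxn1 was -0.47 (adjusted p = 0.413). At an unadjusted p under 0.05 there were 10 in females and 8 in males, all lower, where 21.4% and 9.53% of all genes passed. DESeq2 called 4 and 3, against 10.6% and 1.95% of the genes in edgeR's fit. Their summed level was 11493, 11569.8, 13604 and 12556 CPM in female CRE- mice and 4886, 12688, 5991 and 7174 CPM in female LKO mice. In males it was 11152, 12588, 9882 and 10262 CPM in CRE- mice and 6533, 4946, 8202 and 4914 CPM in LKO mice. The sum was lower in every male LKO mouse than in every male control, and in females LKO replicate 2, the LKO mouse with the most Cyp2f2, was inside the control range and the other LKO mice were below it. The median log2 fold change of the list was -0.78 in females and -0.77 in males. The part of these cells in the Cyp2f2 values was not tested.

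Cyp2j5 (chr4:96517010-96552391, - strand) is the abundant Cyp2j of mouse liver and kidney and turns arachidonic acid into epoxides. It was at 624, 796, 800.3 and 648 CPM in the female CRE- mice and at 215, 346, 349 and 169.7 CPM in the female LKO mice. The highest LKO female was well below the lowest control female. Control females averaged 717 ± 94.1 CPM (SD, n = 4) and LKO females 270.1 ± 91.4 CPM (SD, n = 4), 2.66-fold lower, at a log2 fold change of -1.41 with an SE of 0.29 (adjusted p = 0.0184 in edgeR's quasi-likelihood test and Benjamini-Hochberg adjustment). That call was lost without female CRE- replicate 2 (-1.36, adjusted p = 0.0675), without female CRE- replicate 3 (-1.35, adjusted p = 0.0561), with the female groups fitted alone (-1.39, adjusted p = 0.0501) and without the 3 outlying libraries (-1.02, adjusted p = 0.143), all in the same edgeR test. Male CRE- mice had 398, 704, 512 and 467 CPM and male LKO mice 286, 659, 533 and 611 CPM of Cyp2j5. These groups overlapped almost completely, apart from a low LKO replicate 1. The male log2 fold change was 0.0052 (SE 0.28), with a sign that turned under most alternatives. In the test of the difference between the sexes Cyp2j5 had -1.41 with an SE of 0.40 (adjusted p = 0.178 in edgeR's quasi-likelihood test and Benjamini-Hochberg adjustment), and DESeq2 gave an adjusted p of 0.0377.

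The other Cyp2j members tested, Cyp2j6, Cyp2j8 and Cyp2j9, did not pass in edgeR's quasi-likelihood test in either sex. Over the 4 tested Cyp2j members the log2 fold changes ran from -1.41 to 0.38 in females (median -0.57) and from -0.34 to 0.27 in males (median -0.074). Cyp2j6, picked out after its values were seen because its groups separated in females, was at 61.01, 78.1, 80.7 and 72.1 CPM in female CRE- mice and at 24.7, 47.4, 38.6 and 52.4 CPM in female LKO mice. All LKO females thus lay below all control females, at -0.84 (SE 0.27) in log2.

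The Cyp2a subfamily sits in a cluster on chromosome 7 and its members hydroxylate steroids and coumarin. Cyp2a12 (chr7:26728515-26736243, + strand), the third member to fall in females, hydroxylates testosterone and turns secondary bile acids back into primary ones. It was at 661, 862, 819 and 928 CPM in female CRE- mice and at 523, 616, 449 and 358 CPM in female LKO mice. No LKO female reached the lowest control, though replicate 2 came close. Its mean was 818 ± 113 CPM (SD, n = 4) in the controls against 487 ± 109.5 CPM (SD, n = 4) in the LKO mice, 1.68-fold lower, at a log2 fold change of -0.75 with an SE of 0.20 (adjusted p = 0.0454 in edgeR's quasi-likelihood test and Benjamini-Hochberg adjustment). The call was lost with 6 of the 8 female mice left out in turn, without female CRE- replicates 2, 3 and 4 (adjusted p = 0.136, 0.109 and 0.104) and female LKO replicates 1, 3 and 4 (adjusted p = 0.0864, 0.0785 and 0.0876), with values between -0.88 and -0.63 in the same edgeR test. It was also lost with no filter on low counts (adjusted p = 0.0663), with the female groups alone (adjusted p = 0.118) and without the 3 outlying libraries (adjusted p = 0.188) in edgeR. Among males Cyp2a12 was at 367, 543, 607 and 453 CPM in CRE- mice and at 446, 442, 427 and 432 CPM in LKO mice. The LKO males were close to each other and lay inside the range of the controls. The male log2 fold change was -0.17 with an SE of 0.20 (adjusted p = 0.817 in the same edgeR test) and the difference between the sexes -0.58 with an SE of 0.28 (adjusted p = 0.324 in the same edgeR test).

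Cyp2a4 (chr7:26006617-26014513, + strand) is a testosterone hydroxylase known as female-biased in mouse liver. It had the smallest male p of the family. Its level was 5.80, 19.9, 10.9 and 5.35 CPM in male CRE- replicates 1 to 4 and 233, 26.98, 115 and 26.1 CPM in male LKO replicates 1 to 4. All LKO males were above all control males, with LKO replicates 1 and 3 far above replicates 2 and 4, which were near the highest control. The male log2 fold change of 3.26 with an SE of 0.81 (adjusted p = 0.106 in edgeR's quasi-likelihood test and Benjamini-Hochberg adjustment) did not pass, while DESeq2's adjusted p was 0.00570. Without male LKO replicate 1 the log2 fold change was 2.42 (adjusted p = 0.292 in the same edgeR test). In females Cyp2a4 was at 583, 631, 1104 and 899 CPM in CRE- mice and at 465, 1959, 679 and 112 CPM in LKO mice. The LKO females spanned the controls on both sides, from replicate 4 at the bottom to replicate 2 at the top. The female log2 fold change was -0.0011 (SE 0.74), and -0.94 when LKO replicate 2 was left out. The sexes differed by -3.26 with an SE of 1.07 (adjusted p = 0.213 in edgeR's quasi-likelihood test and Benjamini-Hochberg adjustment) in log2.

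Cyp2a5, on the same chromosome, is the mouse coumarin hydroxylase, which also oxidizes nicotine and bilirubin. It was at 639, 1339, 129 and 635 CPM in male CRE- mice and at 3248, 1022, 277 and 716 CPM in male LKO mice. In the female CRE- mice it was at 523, 754, 1303 and 961 CPM and in the female LKO mice at 174, 2174, 726 and 844 CPM. Mice of a group differed by several-fold in most groups, male LKO replicate 1 and female LKO replicate 2 were the highest, and LKO and control values overlapped in both sexes. For Cyp2a5 the log2 fold change was 0.94 with an SE of 0.75 (adjusted p = 0.729 in edgeR's quasi-likelihood test and Benjamini-Hochberg adjustment) in males and 0.15 with an SE of 0.74 (adjusted p = 0.939 in the same edgeR test) in females. Its sign turned with a single mouse in either sex, to -0.046 without LKO replicate 1 in males and -0.61 without LKO replicate 2 in females.

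Cyp2a22 was at 6.57, 32.9, 23.9 and 7.80 CPM in male CRE- mice and at 112, 14.2, 7.23 and 13.6 CPM in male LKO mice. Its level was 146, 336, 286 and 401 CPM in the female CRE- group and 73.7, 153, 148 and 10.5 CPM in the female LKO group. Male LKO replicate 1 stood far above the other males, in the range of the female LKO mice, and female LKO replicate 4 stood in the range of the males. Cyp2a22 had a log2 fold change of 1.05 with an SE of 0.83 (adjusted p = 0.725 in edgeR's quasi-likelihood test and Benjamini-Hochberg adjustment) in males, which was -0.62 without male LKO replicate 1, and of -1.60 with an SE of 0.84 (adjusted p = 0.286 in the same edgeR test) in females. Over the 4 Cyp2a members the median log2 fold change was 0.996 in males and -0.37 in females.

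The Cyp2b genes are the classic targets of phenobarbital through the nuclear receptor CAR (Nr1i3), and Cyp2b9 and Cyp2b13 are known as female-biased. Cyp2b9, the most abundant Cyp2b per length, was at 319.5, 546, 441 and 479 CPM in female CRE- mice and at 68.5, 293, 242 and 4.74 CPM in female LKO mice. It was at 31.7, 175, 49.7 and 28.7 CPM in male CRE- mice and at 275, 82.6, 38.3 and 80.3 CPM in male LKO mice. All LKO females lay below all control females, and replicate 4 of them was below every male. Among males, CRE- replicate 2 and LKO replicate 1 were the high mice of their groups. For Cyp2b9 the log2 fold change was -1.55 with an SE of 0.85 (adjusted p = 0.313 in edgeR's quasi-likelihood test and Benjamini-Hochberg adjustment) in females and 0.74 with an SE of 0.84 (adjusted p = 0.816 in the same edgeR test) in males, where it was 1.70 without CRE- replicate 2 and -0.098 without LKO replicate 1. Neither Cyp2b10 nor Cyp2b13 passed in edgeR's quasi-likelihood test. The 3 tested Cyp2b members had log2 fold changes from -2.15 to -1.45 in females and from 0.19 to 1.83 in males. The summed Cyp2b level was 455, 908, 861 and 850.2 CPM in female CRE- mice and 92.5, 387, 436 and 13.8 CPM in female LKO mice. Female LKO replicate 4 again had the lowest sum of the females and female LKO replicate 1 the next. Male CRE- mice had Cyp2b sums of 39.6, 219.8, 61.4 and 33.5 CPM and male LKO mice of 407, 93.7, 43.3 and 90.3 CPM, which overlapped.

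Cyp2c is the largest subfamily, and its members oxidize arachidonic acid, retinoids, bile acids and many drugs. None of the 13 tested members passed in either LKO comparison in edgeR's quasi-likelihood test and Benjamini-Hochberg adjustment. At an unadjusted p under 0.05 there were 3 in females, all lower (where 21.4% of all genes passed), and 4 in males, all higher (where 9.53% of all genes passed), and DESeq2 called 1 in females, Cyp2c69 (against 10.6% of the genes in edgeR's fit), and 0 in males. The median log2 fold change was -0.49 in females, with 12 of 13 below 0, and 0.50 in males, with 12 of 13 above 0. Summed over the subfamily, female CRE- mice had 6196, 7906, 8033 and 7199.9 CPM and female LKO mice 3772, 5141, 5564 and 3796 CPM. Every LKO female had a lower sum than every control female. In males the sums were 3209.7, 5799, 3256 and 3816 CPM in CRE- mice and 5470.2, 5772, 4389.6 and 5989.6 CPM in LKO mice, a higher mean in LKO mice with the groups overlapping.

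Cyp2c29, the most abundant Cyp2c per length and an epoxygenase of arachidonic acid, was at 1715, 2354, 2092 and 2395 CPM in female CRE- mice and at 1001, 1576, 1484 and 1047 CPM in female LKO mice. It was at 1183, 2371, 1235 and 1668 CPM in male CRE- mice and at 1773, 2496, 1304 and 2441 CPM in male LKO mice. The female groups did not overlap, and the male groups did. The Cyp2c29 log2 fold change was -0.74 with an SE of 0.27 (adjusted p = 0.114 in edgeR's quasi-likelihood test and Benjamini-Hochberg adjustment) in females and 0.31 with an SE of 0.27 (adjusted p = 0.747 in the same edgeR test) in males. Its female p passed with the replicate number as a block (adjusted p = 0.0480 in edgeR). Cyp2c38, a close relative that oxidizes arachidonic acid, was at 47.9, 134, 58.4 and 60.03 CPM in male CRE- mice and at 197, 126, 92.7 and 148 CPM in male LKO mice. Control replicate 2 was the only male control within the range of the LKO males. Cyp2c38 had a male log2 fold change of 0.91 with an SE of 0.30 (adjusted p = 0.288 in edgeR's quasi-likelihood test and Benjamini-Hochberg adjustment), which was 1.35 without male CRE- replicate 2 and then passed (adjusted p = 0.0397 in the same test). In females it was at 136, 189, 213 and 158 CPM in CRE- mice and at 137, 159, 191 and 192 CPM in LKO mice, with a log2 fold change of -0.039 (SE 0.30). The female groups overlapped fully, and of the male controls only replicate 2 came near them.

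Cyp2c39, which hydroxylates retinoic acid, was at 14.9, 23.1, 15.4 and 30.02 CPM in female CRE- mice and at 10.8, 12.1, 13.9 and 13.2 CPM in female LKO mice. In male CRE- mice it was at 2.39, 9.22, 2.05 and 3.64 CPM and in male LKO mice at 14.7, 5.89, 3.75 and 7.86 CPM. LKO females were all below the control females, and the male groups overlapped. Cyp2c39 had log2 fold changes of -0.74 with an SE of 0.44 (adjusted p = 0.358 in edgeR's quasi-likelihood test and Benjamini-Hochberg adjustment) in females and 0.89 with an SE of 0.45 (adjusted p = 0.556 in the same edgeR test) in males, the latter 1.58 without male CRE- replicate 2.

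Cyp2c40 and Cyp2c69 are neighbours on chromosome 19, and Cyp2c40 hydroxylates arachidonic acid. Cyp2c40 was at 284, 400.1, 379.5 and 373 CPM in female CRE- mice and at 49.1, 178, 105 and 83.1 CPM in female LKO mice. It was at 4.18, 25.6, 12.2 and 3.48 CPM in male CRE- mice and at 58.1, 12.9, 5.71 and 22.7 CPM in male LKO mice. LKO females lay well below control females and, except replicate 1, above all males, of which LKO replicate 1 was the highest. The Cyp2c40 log2 fold change was -1.79 with an SE of 0.65 (adjusted p = 0.118 in edgeR's quasi-likelihood test and Benjamini-Hochberg adjustment) in females and 1.13 with an SE of 0.64 (adjusted p = 0.612 in the same edgeR test) in males, where it was 0.27 without LKO replicate 1 and 1.91 without CRE- replicate 2. Cyp2c69 was at 566, 1091, 723 and 862 CPM in female CRE- mice and at 102, 220.1, 225 and 227 CPM in female LKO mice. In male CRE- mice it was at 1.28, 9.38, 4.19 and 1.64 CPM and in male LKO mice at 31.1, 6.996, 2.56 and 14.9 CPM. Each LKO female was below each control female and above each male, and LKO replicates 1 and 4 were the highest males together with CRE- replicate 2. The Cyp2c69 log2 fold change was -2.07 with an SE of 0.65 (adjusted p = 0.0765 in edgeR's quasi-likelihood test and Benjamini-Hochberg adjustment) in females, where DESeq2's adjusted p was 0.0323, and 1.75 with an SE of 0.65 (adjusted p = 0.359 in the same edgeR test) in males. Its male value was 0.97 without LKO replicate 1 and 2.56 without CRE- replicate 2. The effects of the sexes differed by -3.82 (SE 0.92), with an adjusted p of 0.144 in edgeR's test and 0.0119 in DESeq2's.

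The Cyp2d genes encode oxidases of steroids and of many basic drugs. None of the 9 members, all tested, passed in either LKO comparison in edgeR's quasi-likelihood test and Benjamini-Hochberg adjustment. At an unadjusted p under 0.05 there were 4 in females, 3 lower and 1 higher (where 21.4% of all genes passed), and 0 in males (against 9.53%), and DESeq2 called 2 in females, Cyp2d26 as lower and Cyp2d9 as higher (against 10.6% of the genes in edgeR's fit), and 0 in males. Cyp2d26, the most abundant per length, was at 1114, 1424, 1379 and 1525 CPM in female CRE- mice and at 776, 1075, 833 and 641 CPM in female LKO mice. It was at 814, 1244, 741 and 979 CPM in male CRE- mice and at 677, 1054, 910.5 and 1102 CPM in male LKO mice. The females separated by genotype and the males did not. The Cyp2d26 log2 fold change was -0.71 with an SE of 0.22 (adjusted p = 0.0762 in edgeR's quasi-likelihood test and Benjamini-Hochberg adjustment) in females, which passed without female LKO replicate 2 (-0.86, adjusted p = 0.0369) and with the replicate number as a block (adjusted p = 0.0332). In males it was -0.013 (SE 0.22), of either sign as single mice were left out.

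Cyp2d9, the male-biased testosterone hydroxylase of mouse liver, was at 8.83, 12.4, 27.5 and 19.9 CPM in female CRE- mice and at 24.6, 48.1, 72.97 and 23.00 CPM in female LKO mice. It was at 661, 621, 422 and 883 CPM in male CRE- mice and at 518, 1430.4, 1356 and 1517 CPM in male LKO mice. LKO replicates 2, 3 and 4 were above all male controls and LKO replicate 1 was within them, while in females the groups overlapped at their edge. The Cyp2d9 log2 fold change was 1.30 with an SE of 0.43 (adjusted p = 0.0913 in edgeR's quasi-likelihood test and Benjamini-Hochberg adjustment) in females, where DESeq2's adjusted p was 0.0246, and 0.90 with an SE of 0.43 (adjusted p = 0.525 in the same edgeR test) in males. Both values are positive, unlike most of the family in females, and the difference between them was 0.40 (SE 0.60). Across the 9 Cyp2d members the log2 fold changes ran from -1.20 to 1.30 in females (median -0.37) and from -0.33 to 0.90 in males (median 0.44).

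Cyp2e1 oxidizes ethanol, acetone and paracetamol in hepatocytes around the central vein. It was at 5229, 8126, 1492 and 5902 CPM in male CRE- mice and at 4486, 9901, 5719 and 8894 CPM in male LKO mice. In female CRE- mice Cyp2e1 was at 4107, 5103, 6316 and 5517 CPM and in female LKO mice at 1378, 3779.9, 6138 and 3045 CPM. The groups overlapped in both sexes, and male CRE- replicate 3 and female LKO replicate 1 were the lowest mice of all. Cyp2e1 had log2 fold changes of 0.48 with an SE of 0.45 (adjusted p = 0.769 in edgeR's quasi-likelihood test and Benjamini-Hochberg adjustment) in males and -0.55 with an SE of 0.45 (adjusted p = 0.529 in the same edgeR test) in females. Markers of hepatocytes near the central vein, 16 genes of which Rgn was the most abundant per length and none was at 0 in any mouse, summed to 5310.1, 8905, 2851 and 6232 CPM in male CRE- mice and 3267, 6979, 5398 and 6721 CPM in male LKO mice. They summed to 6292, 8007, 7607 and 8357 CPM in female CRE- mice and 2971, 5679, 5105 and 12302 CPM in female LKO mice. The 2 mice with the lowest Cyp2e1 had the lowest sums of these markers, while female LKO replicate 4, which had the next lowest Cyp2e1, had the highest sum of all, and the part of the markers in the Cyp2e1 values was not tested.

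Of the subfamilies with 1 member, Cyp2r1 is a vitamin D hydroxylase. It was at 15.9, 17.3, 20.3 and 14.4 CPM in female CRE- mice and at 8.43, 13.2, 8.73 and 13.7 CPM in female LKO mice. Male CRE- mice had 13.3, 19.05, 10.1 and 19.2 CPM and male LKO mice 11.6, 14.99, 11.5 and 14.97 CPM of it. LKO females were below control females without overlap, and the male groups shared a range. The Cyp2r1 log2 fold change was -0.62 with an SE of 0.23 (adjusted p = 0.122 in edgeR's quasi-likelihood test and Benjamini-Hochberg adjustment) in females and -0.22 with an SE of 0.23 (adjusted p = 0.793 in the same edgeR test) in males. Cyp2u1, a fatty acid hydroxylase also made in brain, was at 11.8, 6.82, 12.5 and 5.44 CPM in male CRE- mice and at 1.39, 10.1, 11.8 and 8.27 CPM in male LKO mice. In females it was at 1.13, 0.779, 0.575 and 0.989 CPM in CRE- mice and at 0.604, 0.623, 0.366 and 0.492 CPM in LKO mice. Every male was thus above every female, and LKO replicate 1 was the male nearest to the females. Cyp2u1 had log2 fold changes of -0.21 with an SE of 0.45 (adjusted p = 0.912 in edgeR's quasi-likelihood test and Benjamini-Hochberg adjustment) in males and -0.74 with an SE of 0.50 (adjusted p = 0.428 in the same edgeR test) in females.

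Cyp2g1, best known from olfactory mucosa, was at 2.58, 2.16, 0.806 and 2.81 CPM in male CRE- mice and at 3.01, 2.64, 0.248 and 1.03 CPM in male LKO mice. It was at 4.39, 4.15, 8.79 and 6.79 CPM in female CRE- mice and at 0.856, 5.68, 3.31 and 2.75 CPM in female LKO mice. The groups overlapped in each sex, with log2 fold changes of -0.27 (SE 0.62) in males and -0.93 (SE 0.61) in females. Cyp2s1, an epithelial member made mainly outside the liver, was at 0.122, 0.245, 1.01 and 0.292 CPM in male CRE- mice and at 0.412, 0.167, 0.348 and 0.378 CPM in male LKO mice. Female CRE- mice had 0.510, 0.545, 0.431 and 0.428 CPM and female LKO mice 0.302, 0.399, 0.841 and 0.0579 CPM of it. At 2 to 46 reads per mouse these values carry a large counting error, the groups overlapped, and the log2 fold change was -0.35 (SE 0.68) in males and -0.24 (SE 0.67) in females. Cyp2t4 had 2 reads in male CRE- replicate 4 and 0 in each other mouse, and Cyp2w1 had 0 in all 16. A count of 0 allows up to 3 reads, or 0.0549 to 0.0868 CPM depending on the library, as far as counting error goes. This takes reads as independent. Cyp2b23 had 0, 2 or 4 reads in each mouse, and if both reads of a pair were counted, the limit is higher.

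**Figure D3:**
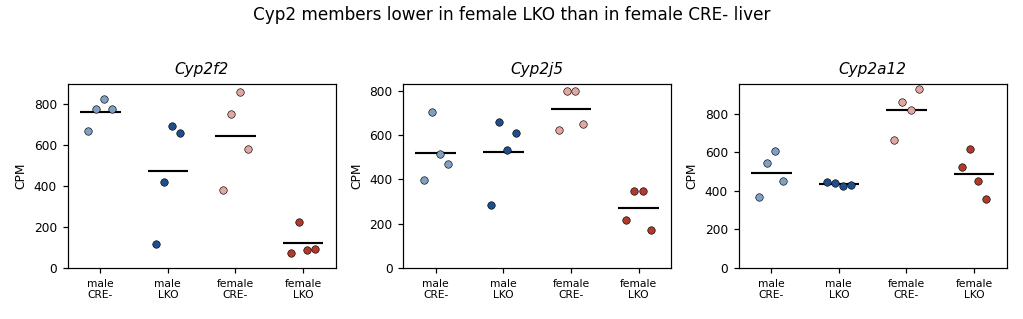
CPM of Cyp2f2, Cyp2j5 and Cyp2a12 in each mouse, by group, on a linear axis from 0, with a line at the mean of 4 mice. In each panel the 4 female LKO mice lie below the 4 female CRE- mice, for Cyp2f2 at 72.3 to 223 against 377 to 858 CPM.

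The next question was how the family differs between the sexes with the receptor gene intact and with it deleted. In CRE- mice 9 of the 39 members differed (23.1%, against 0.920% of all genes tested, in edgeR's quasi-likelihood test and Benjamini-Hochberg adjustment). Of these, 7 were higher in females (17.9%, against 0.412% of all genes), namely Cyp2a4, Cyp2a22, Cyp2c39, Cyp2c40, Cyp2c68, Cyp2c69 and Cyp2c70, and 2 were lower (5.13%, against 0.508% of all genes), Cyp2d9 and Cyp2u1. DESeq2 called 15 (against 2.93% of the genes in edgeR's fit). The female CRE- mice were 197-fold above the male CRE- mice for Cyp2c69, 76.7-fold for Cyp2a4 and 31.5-fold for Cyp2c40, and 37.7-fold below them for Cyp2d9 and 10.5-fold for Cyp2u1. These 5 calls held with each CRE- mouse left out. They were the whole count without male CRE- replicate 1, male CRE- replicate 3 or female CRE- replicate 4, and with another mouse left out the count was 6 to 9. With the block it was 8, with the CRE- groups fitted alone 13 and without the 3 libraries farthest out 8.

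In log2, the Cyp2c69 difference was 7.62 with an SE of 0.83 (adjusted p = 8.41e-05 in edgeR's quasi-likelihood test and Benjamini-Hochberg adjustment), and 8.43 without male CRE- replicate 2. Cyp2a4 had 6.26 with an SE of 0.93 (adjusted p = 0.00210 in the same edgeR test) and Cyp2c40 4.98 with an SE of 0.75 (adjusted p = 0.00227 in the same edgeR test), the latter 5.77 without male CRE- replicate 2. Male CRE- replicate 2 was the male control with the highest level of these 3 female-biased members. Cyp2a22 differed by 4.04 with an SE of 0.92 (adjusted p = 0.0480 in the same edgeR test) and lost its call with each of the 8 mice left out (adjusted p from 0.0641 to 0.173). Cyp2c39 differed by 2.27 with an SE of 0.46 (adjusted p = 0.0258 in the same edgeR test), with 2.95 without male CRE- replicate 2, and lost its call without male CRE- replicates 1, 3 and 4 (adjusted p = 0.105, 0.0843 and 0.0720) and female CRE- replicates 2 and 4 (adjusted p = 0.0794 and 0.105). Among the lower members Cyp2d9 had -5.23 with an SE of 0.51 (adjusted p = 1.88e-05 in edgeR's quasi-likelihood test and Benjamini-Hochberg adjustment) and Cyp2u1 -3.39 with an SE of 0.51 (adjusted p = 0.00215 in the same edgeR test). Cyp2c68 and Cyp2c70, named after their values were seen, had differences of 1.48 with an SE of 0.32 (adjusted p = 0.0390 in edgeR's quasi-likelihood test and Benjamini-Hochberg adjustment) and 1.27 with an SE of 0.25 (adjusted p = 0.0193 in the same edgeR test). Cyp2c70 makes the muricholic acids of mouse bile. Cyp2c68 lost its call with 7 of the 8 mice left out in turn (the exception was male CRE- replicate 2), with adjusted p up to 0.153, and Cyp2c70 in 4 of 8, without male CRE- replicates 1 and 3 and female CRE- replicates 1 and 4, with adjusted p up to 0.0862.

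In LKO mice 5 members differed between the sexes (12.8%, against 1.13% of all genes, in edgeR's quasi-likelihood test and Benjamini-Hochberg adjustment). Cyp2c69 was higher in females (2.56%, against 0.514% of all genes), and Cyp2d9, Cyp2u1, Cyp2d12 and Cyp2f2 were lower (10.3%, against 0.615% of all genes). DESeq2 called 10 (against 6.59% of the genes in edgeR's fit). The female LKO mice were 13.9-fold above the male LKO mice for Cyp2c69, and 28.6-fold below them for Cyp2d9 and 15.1-fold for Cyp2u1. The log2 difference was 3.80 with an SE of 0.70 (adjusted p = 0.0142 in edgeR's quasi-likelihood test and Benjamini-Hochberg adjustment) for Cyp2c69, which was 4.59 without male LKO replicate 1 and lost its call without male LKO replicates 2 and 4 (adjusted p = 0.0768 and 0.0687) and with the LKO groups fitted alone (adjusted p = 0.106). For Cyp2d9 it was -4.84 with an SE of 0.50 (adjusted p = 6.05e-05 in the same edgeR test) and for Cyp2u1 -3.92 with an SE of 0.52 (adjusted p = 0.00114 in the same edgeR test), both of which held with each LKO mouse left out, although Cyp2u1 lost its call in the fit of these groups alone (adjusted p = 0.0650). Cyp2f2 had -1.98 with an SE of 0.46 (adjusted p = 0.0454 in edgeR's quasi-likelihood test and Benjamini-Hochberg adjustment) and lost its call with 6 of the 8 LKO mice left out in turn, with adjusted p up to 0.161, keeping it without male LKO replicate 1 and female LKO replicate 2, and the values of the LKO sexes overlapped, as male LKO replicate 1 lay within the female range. Cyp2d12, named after its values were seen, had -2.80 with an SE of 0.63 (adjusted p = 0.0417 in the same edgeR test) from at most 234 reads in a mouse, and lost its call in 5 of those fits, with adjusted p up to 0.153. The count of 5 was 11 without male LKO replicate 1, was 8 when female LKO replicate 2 was left out, 3 without male LKO replicate 3 or female LKO replicate 3 or 4, and 2 without male LKO replicate 2 or 4, and in the fit of the LKO groups alone it was 1, Cyp2d9. It was 8 with the block and 2 without the 3 libraries farthest out. Of the female-biased members of CRE- mice, Cyp2a4 had a log2 fold change between the LKO sexes of 3.002 with an SE of 0.79 (adjusted p = 0.0777 in the same edgeR test). Cyp2c40 was at 2.06 with an SE of 0.66 (adjusted p = 0.119 in the same edgeR test) there, and for both genes the values of the LKO sexes overlapped. DESeq2 called both, with an adjusted p of 0.00646 for Cyp2a4 and 0.0497 for Cyp2c40. Whether a sex difference itself differed between LKO and CRE- mice is the interaction above, which no member passed in edgeR's test. Each sex comparison uses mice of the LKO comparisons, so the values of these comparisons are not independent of each other.

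**Figure D4:**
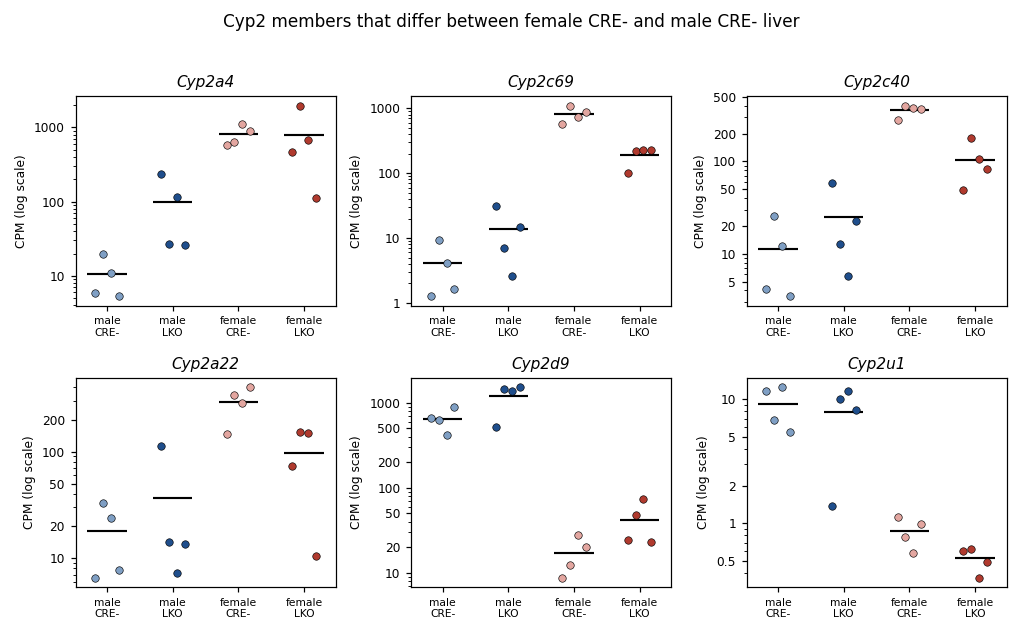
CPM of Cyp2a4, Cyp2c69, Cyp2c40, Cyp2a22, Cyp2d9 and Cyp2u1 in each mouse, by group, on a log scale, with a line at the mean of 4 mice. The 4 female CRE- mice lie above the 4 male CRE- mice for the first 4 genes and below them for Cyp2d9 and Cyp2u1, and male LKO replicate 1 is the highest male for Cyp2a4 at 233 CPM and the lowest for Cyp2u1 at 1.39 CPM.

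Other P450 genes of the liver give a setting for the family. Cyp3a11 was the most abundant per length of 20 genes of the Cyp1, Cyp3 and Cyp4 families. Of the 20, 5 fell in female LKO mice and 0 passed in males in edgeR's test. Of all genes tested, 2.15% passed as lower in females and 0.454% passed in males in that test. At an unadjusted p under 0.05 there were 5 in males, all higher. In females 2 were higher and 6 lower, against 9.53% of all genes in males and 21.4% in females. DESeq2 called 0 in males and 6 lower in females, against 1.95% and 10.6% of the genes in edgeR's fit. The 5 that fell were Cyp3a41b, in log2 at -4.10 (SE 0.55, adjusted p = 0.00274), Cyp3a44, at -2.84 (SE 0.48, adjusted p = 0.00697), Cyp3a16, at -1.79 (SE 0.42, adjusted p = 0.0297), Cyp3a41a, at -2.73 (SE 0.64, adjusted p = 0.0298), and Cyp4f14, at -1.30 (SE 0.31, adjusted p = 0.0326), in edgeR's quasi-likelihood test and Benjamini-Hochberg adjustment. Cyp3a genes oxidize steroids and drugs, and Cyp4f enzymes oxidize fatty acids and leukotrienes. In the interaction their adjusted p ran from 0.122 (Cyp3a44) to 0.352 (Cyp3a41b). Cyp3a41b had at most 2 reads in any male, so its interaction holds no information on males. Cyp3a41a, Cyp3a44 and Cyp3a16 were also low in males, with means of 0.522, 2.68 and 2.89 CPM in male CRE- mice. Their means in female CRE- mice were 830, 281 and 232 CPM. Cyp3a41b and Cyp4a12b were at 0 in some mice. The median log2 fold change of the 20 was -0.33 in females and 0.23 in males, both closer to 0 than the Cyp2 medians. Cyp3a11 was at 0.68 (SE 0.27, adjusted p = 0.150) in females and 0.72 (SE 0.27, adjusted p = 0.363) in males. The 20 summed to 4999, 7341, 5796 and 4901 CPM in male CRE- mice and 11134, 7848, 8005 and 9599 CPM in male LKO mice, all of them above the controls. For females the sums were 6703, 9092, 8335 and 6912 CPM in CRE- mice and 4919, 10950.4, 6035 and 7401 CPM in LKO mice, which overlapped.

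P450 enzymes work only with electron donors and haem. Of 7 donors and their partners, 2 fell in females, the cytochrome b5 gene Cyb5b at -0.89 (SE 0.22, adjusted p = 0.0340) and its reductase Cyb5r3 at -0.94 (SE 0.26, adjusted p = 0.0493), in edgeR's quasi-likelihood test and Benjamini-Hochberg adjustment, and males had 0 past the test, with 1 higher and 3 lower in females and 0 in males at an unadjusted p under 0.05, and 2 lower in females and 0 in males by DESeq2. For this list and those below, 4.24% of all genes in females and 0.454% in males passed edgeR's test. At an unadjusted p under 0.05 the shares were 21.4% and 9.53%, and DESeq2 called 10.6% and 1.95% of the genes in edgeR's fit. The interaction was -0.59 (adjusted p = 0.338) for Cyb5b and -0.65 (adjusted p = 0.373) for Cyb5r3. Cyb5a was the most abundant donor per length, and the list's median log2 fold change was -0.46 in females and 0.0063 in males. Of the 8 haem synthesis genes, led per length by Alas1, 0 passed in either sex in edgeR's test, with 0 in males and 3 lower in females at an unadjusted p under 0.05 and 0 by DESeq2. Their median log2 fold change was -0.35 in females and 0.089 in males.

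Transcription factors that act on Cyp2 genes were given as a list of 30, led per length by Cebpa. Those that fell in females include the orphan receptor Nr5a2 at -0.58 (SE 0.16, adjusted p = 0.0483) and the retinoid X receptor Rxrg at -1.06 (SE 0.27, adjusted p = 0.0373), in edgeR's quasi-likelihood test and Benjamini-Hochberg adjustment. Males had 0 past edgeR's test, with 6 lower in females and 1 higher and 3 lower in males at an unadjusted p under 0.05, and 4 lower in females and 1 higher and 1 lower in males by DESeq2. The interaction was -0.42 (adjusted p = 0.358) for Nr5a2 and -1.36 (adjusted p = 0.173) for Rxrg. The list's median log2 fold change was -0.21 in females and -0.081 in males.

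Sex-biased Cyp2 genes are known to respond to growth hormone, prolactin and sex steroids. Of 12 genes of these pathways, led per length by the growth hormone receptor Ghr, the estrogen receptor Esr1 fell in both sexes, at -1.32 (SE 0.26, adjusted p = 0.0173) in females and -1.33 (SE 0.26, adjusted p = 0.0360) in males, in edgeR's quasi-likelihood test and Benjamini-Hochberg adjustment. Ghr, at -1.24 (SE 0.25, adjusted p = 0.0184), and the prolactin receptor Prlr, at -1.17 (SE 0.23, adjusted p = 0.0176), fell in females and did not pass in males, with interactions of -0.84 (adjusted p = 0.271) and -0.90 (adjusted p = 0.236). Of the 12, at an unadjusted p under 0.05, 1 was higher and 4 lower in females and 2 were higher and 3 lower in males, against 21.4% and 9.53% of all genes, and DESeq2 called 3 lower in females and 1 higher and 1 lower in males. The sum of the 12 was 1535, 1833, 1778 and 1681 CPM in female CRE- mice and 1188, 1189, 929 and 870.0 CPM in female LKO mice. In males it was 1184, 1657, 1653 and 1161 CPM in CRE- mice and 878, 1114, 1150.0 and 1022 CPM in LKO mice, and LKO mice were below the controls of their sex without overlap. The median log2 fold change was -0.23 in females and -0.088 in males. The part of these genes in the sex-biased members was not tested.

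Hepatocyte markers were present in every mouse, as the tissue label says. The 14 of them, led per length by Alb and none at 0 in any mouse, summed to 167469, 157706, 164735 and 192482 CPM in female CRE- mice and 96758, 140430.0, 125498 and 141102 CPM in female LKO mice. In males the sum was 102582, 134867, 150713 and 134352 CPM in CRE- mice and 93449, 104131, 124586 and 106383 CPM in LKO mice. Each female LKO mouse was below each female control, with LKO replicate 1, which had low Cyp2e1, Cyp2a5 and Cyp2f2, at the bottom. None of the 14 passed in edgeR's test in either sex, with 6 lower in females and 5 lower in males at an unadjusted p under 0.05, and 3 lower in females and 0 in males by DESeq2. The median log2 fold change was -0.67 in females, against -0.61 for the Cyp2 members, and -0.28 in males, against 0.41. The part of the hepatocyte share in the members' values was not tested. Of the 16 pericentral markers 0 passed in either sex, with 1 higher and 2 lower in females and 1 higher in males at an unadjusted p under 0.05, and 2 lower in females and 0 in males by DESeq2, and their median was 0.17 in females and -0.063 in males. Acute-phase genes, which hepatocytes raise in inflammation, did not pass in edgeR's test in either sex (0 of 20, with 7 higher and 1 lower in females and 3 lower in males at an unadjusted p under 0.05, and 0 in females and 1 lower in males by DESeq2). Led per length by Hpx, their median was 0.69 in females and -0.37 in males.

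Markers of other cell types moved in the female comparison, in which the 3 members fell. Of 10 macrophage markers, led per length by Lyz2 and none at 0, Itgam rose at 2.57 (SE 0.64, adjusted p = 0.0369) and Adgre1 at 2.15 (SE 0.57, adjusted p = 0.0451) in females, in edgeR's quasi-likelihood test and Benjamini-Hochberg adjustment, and the 10 summed to 889, 648, 719 and 1218 CPM in female CRE- mice and 4049.7, 1184, 2536 and 1564 CPM in female LKO mice. Of 9 neutrophil markers tested out of 10, led per length by S100a9, Ngp rose at 4.68 (SE 1.27, adjusted p = 0.0483), Mpo at 5.23 (SE 1.27, adjusted p = 0.0332) and Retnlg at 2.86 (SE 0.69, adjusted p = 0.0331) in the same test, and the list summed to 40.2, 20.9, 17.1 and 19.6 CPM in female CRE- mice and 147, 45.9, 78.3 and 673 CPM in female LKO mice. Ly6g, Elane and Camp were at 0 in some mice. Female LKO replicate 1 had the highest macrophage sum of the females and female LKO replicate 4 the highest neutrophil sum. These are the LKO females with the lowest value of many Cyp2 members. The macrophage list summed to 1093, 535, 302 and 1591 CPM in male CRE- mice. In male LKO mice it summed to 1388, 745, 824 and 723 CPM. The neutrophil list summed to 100.1, 21.6, 18.3 and 201 CPM in male CRE- mice. In male LKO mice it summed to 27.7, 17.7, 14.1 and 13.2 CPM. Male CRE- replicate 3, the mouse with the lowest share of reads on the family, had the lowest macrophage sum of all mice. Of 10 proliferation genes, led per length by Top2a and with Ccnb2 and Bub1 at 0 in some mice, 6 rose in females, Nek2 at 2.14 (SE 0.31, adjusted p = 0.00370), Birc5, Ccnb1, Cdk1, Top2a and Aurkb, and the list summed to 12.1, 11.5, 7.33 and 20.5 CPM in female CRE- mice and 96.2, 24.1, 41.5 and 44.03 CPM in female LKO mice. Every LKO female was above every control female in that sum. None of these 3 lists had a gene past edgeR's test in males, where 0 macrophage, 7 neutrophil (all lower) and 1 proliferation genes (higher) had an unadjusted p under 0.05 and DESeq2 called 0, 3 (all lower) and 0. In females 10 macrophage, 9 neutrophil and 10 proliferation genes had an unadjusted p under 0.05, all of them higher in LKO mice, and DESeq2 called 8, 8 and 10. Over all genes, 21.4% in females and 9.53% in males had such a p, and DESeq2 called 10.6% and 1.95% of the genes in edgeR's fit. In the interaction the adjusted p of the 11 genes called in females ran from 0.104 to 0.356. The medians were 1.45, 3.58 and 2.14 for macrophage, neutrophil and proliferation genes in females and 0.0081, -2.23 and 0.22 in males. The part of these cells in the members' values was not tested.

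Of 10 endothelial markers, led per length by Clec4g, Cdh5 rose at 0.79 (SE 0.17, adjusted p = 0.0249) and Vwf at 1.15 (SE 0.28, adjusted p = 0.0358) in females, in edgeR's quasi-likelihood test and Benjamini-Hochberg adjustment, with interactions of 0.59 (adjusted p = 0.271) and 1.75 (adjusted p = 0.135). They summed to 318, 434, 407 and 392 CPM in female CRE- mice and 615, 412, 363 and 454 CPM in female LKO mice, and LKO replicate 1 had the highest sum. In males 0 passed, with 4 higher in females and 1 lower in males at an unadjusted p under 0.05, and 3 higher in females and 0 in males by DESeq2. Clec4g itself was at -0.70 (SE 0.40, adjusted p = 0.332) in females, and the median of the 10 was 0.42 in females and 0.21 in males. The markers of T and NK cells (10, led by Nkg7), B and plasma cells (8, led by Igkc), stellate cells and fibroblasts (10, led by Dcn) and cholangiocytes (8, led by Spp1, with Cftr at 0 in some mice) had 0 genes past edgeR's test in either sex. At an unadjusted p under 0.05 they had 2, 1, 0 and 1 in females, all higher, and 0, 0, 1 and 0 in males, the 1 lower, and DESeq2 called 0 in each. Their medians were 0.48, 0.62, 0.19 and 0.26 in females and -0.069, 0.22, -0.55 and 0.50 in males, in the same order.

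Several members are near copies of each other, and reads that align equally well to more than 1 place were not counted, so the counts of close paralogs are uncertain. Over 100-base windows of the exons in GRCm39, 23 of the 49 members share no window with another Cyp2 gene, Cyp2f2 and Cyp2j5 among them, 16 share up to 10% and 10 share 10% to 50%. For Cyp2a12 the share was 6.89%, all with Cyp2a22. Cyp2a4 and Cyp2a5 are 98.1% identical over their exons and share 11.3% of windows. Their levels differ in the males above. In female CRE- mice they were close, at 583, 631, 1104 and 899 CPM for Cyp2a4 and 523, 754, 1303 and 961 CPM for Cyp2a5. They were also close in female LKO replicates 2 and 3, and not in female LKO replicates 1 and 4. Cyp2c40 and Cyp2c69 are 95.7% identical, and 44.2% of windows of Cyp2c40 and 33.6% of those of Cyp2c69 occur in another member. To show how alike a pair with different values is, exon 4 of Cyp2a4 (chr7:26008353-26008513) and of Cyp2a5 (chr7:26536516-26536676), both on the + strand of GRCm39 and 161 bases long, are printed with the 5 bases that differ in capitals.
Cyp2a4: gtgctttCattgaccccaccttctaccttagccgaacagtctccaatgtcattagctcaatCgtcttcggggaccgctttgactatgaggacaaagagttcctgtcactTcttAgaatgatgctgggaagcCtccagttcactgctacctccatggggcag
Cyp2a5: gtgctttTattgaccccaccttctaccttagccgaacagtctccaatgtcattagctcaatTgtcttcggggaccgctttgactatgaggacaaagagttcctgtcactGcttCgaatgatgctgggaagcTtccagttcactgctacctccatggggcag

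The promoters of the 3 members that fell in females are shown because these genes fell in the same comparison. RefSeq promoters (table build GRCm38.p6, 250 bases before the gene start and 50 from it) were matched by symbol for 40 of the 49 members, and for 11 of the 13 members called in any comparison. Both strands were searched for TTCNNNGAA, the motif of STAT5, for direct repeats of AGGTCA spaced by 1 base (DR1) or 4 bases (DR4), which nuclear receptors bind, and for TTGCGCAA, a motif of the CEBP factors. None of the promoters of the called members holds any of them. Among all 40 members, Cyp2j11 and Cyp2j12 hold TTCNNNGAA, and no other match was found. Of 32851 mouse promoters of the same length, 8.30% hold TTCNNNGAA, 0.0396% DR1, 0.0152% DR4 and 0.183% TTGCGCAA. The sequences of Cyp2f2 (chr7:26819130-26819429, + strand), Cyp2j5 (chr4:96552307-96552606, - strand) and Cyp2a12 (chr7:26728265-26728564, + strand) were placed on GRCm39 by exact match, and the base that RefSeq takes as the gene start is in capitals, which for Cyp2j5 lies 35 bases from the first base of the gene in the deposited table.
Cyp2f2: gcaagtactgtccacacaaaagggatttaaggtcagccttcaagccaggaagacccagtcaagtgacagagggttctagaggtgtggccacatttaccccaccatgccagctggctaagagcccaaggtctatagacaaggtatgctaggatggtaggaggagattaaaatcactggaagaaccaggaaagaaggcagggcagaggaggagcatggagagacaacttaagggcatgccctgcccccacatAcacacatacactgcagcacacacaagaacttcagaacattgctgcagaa
Cyp2j5: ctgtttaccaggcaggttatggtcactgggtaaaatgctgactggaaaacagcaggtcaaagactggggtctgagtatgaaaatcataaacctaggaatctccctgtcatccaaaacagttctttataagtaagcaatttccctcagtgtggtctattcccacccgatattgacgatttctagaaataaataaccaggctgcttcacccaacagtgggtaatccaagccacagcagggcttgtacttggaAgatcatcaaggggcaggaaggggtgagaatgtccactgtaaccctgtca
Cyp2a12: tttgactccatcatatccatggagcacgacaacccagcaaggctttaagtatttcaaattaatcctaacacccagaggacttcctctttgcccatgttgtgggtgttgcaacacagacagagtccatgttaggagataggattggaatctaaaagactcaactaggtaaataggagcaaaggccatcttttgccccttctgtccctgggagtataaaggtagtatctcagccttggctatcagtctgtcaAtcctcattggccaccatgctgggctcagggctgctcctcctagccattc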

How the data were processed

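Counts per gene and the summed exon length of each gene were deposited by the authors for 16 liver libraries, and the unit of the values is counts of reads. The submitters' processing notes name STAR 2.7.1a, featureCounts of Subread 2.0.6 and GRCm39. Reads that align to several places or overlap several genes were not counted.

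All 16 libraries were fitted together in edgeR 4.0.16 (R 4.3.3, limma 3.58.1) with TMM, 4 groups, filterByExpr at a minimum count of 10 and quasi-likelihood tests. P-values were adjusted by Benjamini-Hochberg over the genes tested, with a threshold of 0.05. The SE was the log2 fold change over the square root of F. Mice were taken as separate samples of a group.

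Members and lists (electron donors, regulators, growth hormone and sex-biased regulators, haem synthesis, other P450 families, acute-phase genes and markers of liver cell types) were chosen with earlier results of these data known. Values of 2 genes of these lists are not reported here. Named with all values were the members past the threshold in an LKO comparison, the most abundant per length in each subfamily, the 3 with the smallest p where fewer than 3 passed, up to 5 in each direction between the CRE- sexes, and Gcgr. Of each list, up to 6 genes past the threshold and the most abundant were named.

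Alternatives were DESeq2 1.42.0, its normalization in edgeR, no filter, the replicate number as a block, the compared groups alone, and each mouse left out. Leaving out the 3 libraries farthest on the principal components was chosen after seeing the data. Counting error was the only error in the floor of a count of 0.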

Additional observations from a re-analysis of the deposited data

Results flagged for a closer look

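In 85 groups of 4 mice, each a named gene or the family's share of reads in 1 group and not all at the same value, the gap between an extreme mouse and its nearest neighbour was compared with the range of the group by Dixon's ratio. It passed the critical value of 0.829 in 8, where chance gives about 4.25. Male LKO replicate 1 was high for Cyp2a22, at 112 CPM against 7.23 to 14.2 CPM in the other male LKO mice. The same mouse was low for Cyp2d9, at 518 CPM against 1356 to 1517 CPM. Male CRE- replicate 2 was high for Cyp2b9, at 175 CPM against 28.7 to 49.7 CPM in the other male CRE- mice, and for Cyp2c38, at 134 CPM against 47.9 to 60.03 CPM. In female LKO mice, replicate 1 was low for Cyp2c69, at 102 CPM against 220.1 to 227 CPM, and replicate 2 was high for Cyp2f2, at 223 CPM against 72.3 to 92.7 CPM. Cyp2t4 was at 0.0449 CPM in male CRE- replicate 4, from 2 reads, and at 0 in the other male CRE- mice. With the others at 0 its ratio is 1.0 at any count, so this flag shows only that 2 reads were found. Gcgr was at 127 CPM in male CRE- replicate 3 against 189.6 to 193 CPM in the others.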

How the results depend on the processing

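Of the results for named genes under the alternatives, 633 kept their direction and side of the threshold, 73 lost their call, 9 gained a call and 41 changed sign. Of the counts of called members, 53 were unchanged or stayed within 1.5 times, and 24 did not. The 53 include counts of 0 that stayed at 0, as in the interaction, to which no ratio applies. The cause was not tested in any case. DESeq2 called 1 member in males, 7 in females, 2 in the interaction, 15 between the CRE- sexes and 10 between the LKO sexes. The replicate number as a block gave 6 in females and 8 between the LKO sexes, the LKO groups alone gave 1, and leaving out the 3 farthest libraries gave 0 in females and 2 between the LKO sexes. With single mice left out the counts ran from 0 to 1 in males, 1 to 5 in females, 0 to 0 in the interaction, 5 to 9 between the CRE- sexes and 2 to 11 between the LKO sexes.

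No change of sign touched a value past the threshold. In males Cyp2j5 was at -0.0080 by DESeq2, -0.0078 with RLE, -0.0022 with no filter, -0.0056 with the block, -0.012 with the groups alone and -0.011 without the 3 libraries. In females Cyp2a4 was at 0.011 by DESeq2, 0.011 with RLE, 0.017 with the groups alone and 0.73 without the 3 libraries, and Cyp2a5 at -0.17 with the block. Without the 3 libraries Cyp2c38 was at 0.030 and Cyp2s1 at 0.40 in females, and Cyp2s1 at 0.55 in males. With single mice left out the male values ran from -0.13 to 0.19 for Cyp2j5, -0.62 to 1.53 for Cyp2a22, -0.046 to 1.49 for Cyp2a5, -0.098 to 1.70 for Cyp2b9, -0.13 to 0.15 for Cyp2d26, -0.70 to 0.092 for Cyp2g1, -0.67 to 0.55 for Cyp2s1 and -0.47 to 0.12 for Cyp2u1. The female values ran from -0.94 to 0.37 for Cyp2a4, -0.61 to 0.52 for Cyp2a5, -0.14 to 0.076 for Cyp2c38 and -0.91 to 0.12 for Cyp2s1.

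Mice with the same replicate number had correlations of the residual log2 CPM above 0.1 for 3 of 4 numbers in males, in females and between the CRE- sexes, and for 1 of 4 between the LKO sexes. With the female groups alone, 38 members passed the filter. Depth limits Cyp2s1, at 2 to 46 reads in a mouse, and the 10 members that were not tested.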
